A study of Mus musculus with 3 samples.

Results

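The transcriptome of all lung endothelial cells (ECs) was compared between mice taken 30 h and mice taken 6 h after the injection of melanoma cells. ECs were taken as the barcodes with 1000 to 5000 detected genes, under 20% of UMIs from mitochondrial genes and at least 2 UMIs of Pecam1 and Cdh5 together. A UMI marks 1 captured RNA molecule. By this rule 9278 barcodes were members at 30 h and 10583 at 6 h, which is 19861 of the 31092 barcodes that passed it in the whole series. All endothelial classes were summed within each library, so that each time point gave 1 value per gene.

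ECs line every blood and lymphatic vessel. In the lung most of them are capillary cells, of which general capillary cells (gCap) serve as progenitors and aerocytes (aCap) spread thinly over the alveoli for gas exchange. Circulating tumor cells lodge in these capillaries. ECs answer tumor cells, cytokines and the loss of blood flow with rapid waves of transcription factors, chaperones and adhesion molecules that can fade within hours, while metabolic and angiogenic programs move more slowly.

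The study asked what happens in the lung endothelium once tumor cells lodge there, and the reactive capillary state it describes (rCap) carries genes such as Pim3, Bcl3 and Inhbb. Wild-type (WT) C57BL/6 mice received 200000 B16-F10 cells, a pigmented mouse melanoma line, in 100 µl of buffer through the tail vein. The groups were B16F10 at 6 h, B16F10 at 30 h and Control, mice that received PBS alone and were taken at 6 h. Pecam1-positive, Ptprc-negative cells were sorted after a warm collagenase digestion, and dye-labelled melanoma cells were sorted as well. The library protocol names those of the 6 h mice as added, and whether any were added at 30 h was not settled. Each group is 1 library of pooled mice (2 per treatment by the labels but 3 per sample by the methods, a conflict that was not settled), so no difference below has a replicate check and no test between groups was possible. Intervals are at 95% and cover counting error only. No PBS library at 30 h was analysed here, so the age of the injection and the handling of each library cannot be told apart.

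The 2 endothelial sums were of similar depth. They held 87340328 UMIs at 6 h and 81485079 at 30 h, with medians of 8033 and 8675 UMIs and of 3204 and 3281 genes per barcode, and 22 barcodes were listed in both libraries. Pecam1 and Cdh5 summed to 2719 and 3025 CPM (UMIs scaled to a common library total), which the rule itself set. Of markers that the rule did not use, the 4 of general capillary cells summed to 3804 and 3688 CPM. RNA of other cells was present and moved between the libraries. The 4 hemoglobin genes summed to 2115 CPM at 6 h and 827 CPM at 30 h, 8 epithelial markers to 1161 and 977 CPM, 9 leukocyte markers to 141 and 76.9 CPM, 6 platelet markers to 250 and 211 CPM, and 8 melanoma markers to 14.7 and 1.24 CPM. Others were higher at 30 h, with 170 and 226 CPM for 6 fibroblast markers and 87.5 and 103 CPM for 7 markers of pericytes and smooth muscle. Barcodes that carried RNA of another cell type made up 21.1% at 6 h and 26.4% at 30 h. Here and below, these had at least 3 UMIs of the platelet, leukocyte, fibroblast, pericyte and smooth muscle, or melanoma markers. Red cell and epithelial markers are not part of this count. At least 3 UMIs of red cell markers lay in 85.8% and 14.9% of barcodes, and of epithelial markers in 71.0% and 67.8%. None of the markers of other cell types was at 0 in the 6 h sum, and Tyrp1 alone was at 0 at 30 h. The 7 gene models that can collect reads of ribosomal RNA, such as Gm42418 and Cmss1, summed to 7573 CPM at 6 h and 24379 CPM at 30 h. In bulk sums such as these, fewer cells of a type and less RNA per cell cannot be told apart.

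Of 24138 genes with a UMI, 10184 averaged 5 CPM or more over both libraries. Of these, 544 (5.34%) were at least 1.5-fold higher and 533 (5.23%) at least 1.5-fold lower at 30 h than at 6 h, or 1077 (10.6%) in either direction. These shares are the background for the list counts below, all of which are taken in the whole sum. Of all tested genes, 4090 had a ratio above 0. A gene near the 5 CPM limit can pass it through the library where it is high, and its call then follows from the limit in part. At 2-fold, 132 genes (1.3%) were higher and 145 (1.42%) lower. The median log2 ratio of all tested genes was -0.07, and the middle 95% lay between -0.81 and 0.81. The balance of the directions depended on the scaling. When the libraries were scaled so that the median ratio was 1, 696 genes were higher and 413 lower, which is 62.8% of calls higher against 50.5% in the main setting, and with trimmed mean scaling the counts were 651 and 434.

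**Figure D1:**
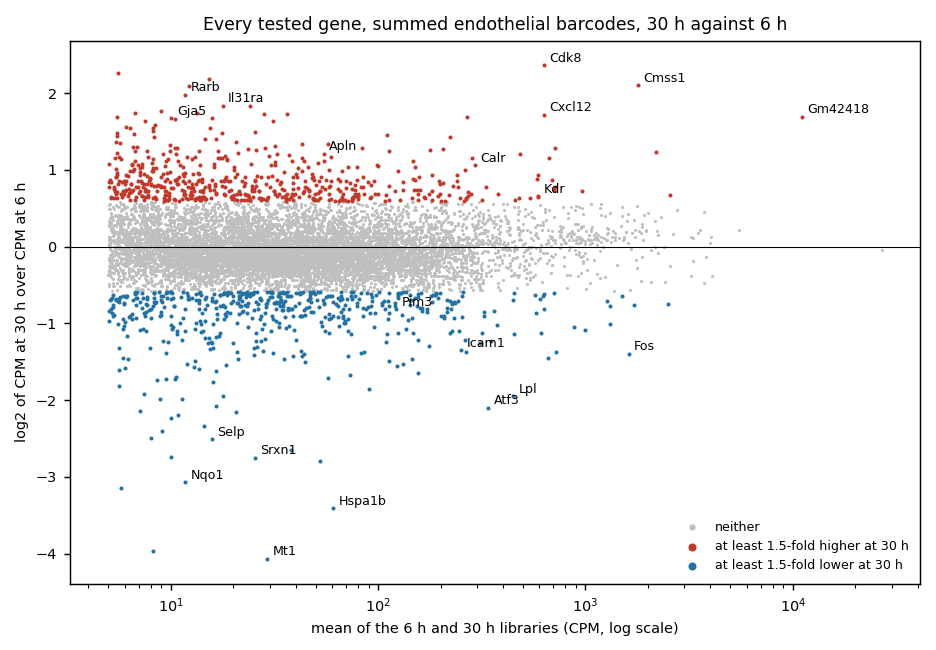
Each point is 1 of the 10184 tested genes, with the mean CPM of the 6 h and 30 h libraries on a logarithmic horizontal axis and the log2 ratio of 30 h over 6 h on the vertical axis. Red points were at least 1.5-fold higher and blue points at least 1.5-fold lower at 30 h, and the points farthest from 0 are lower ones, down to -4.07 for Mt1.

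The largest differences were on the lower side. Among genes that averaged 10 CPM or more, and with mitochondrial genes, ribosomal RNA models and unnamed gene models left aside, the 15 lowest ratios ran from -4.07 to -1.95 on the log2 scale and the 15 highest from 1.34 to 2.09. The lowest 15 held the metallothionein Mt1, the inducible HSP70 genes Hspa1b and Hspa1a, the NRF2 targets Nqo1 and Srxn1, the adhesion receptor Selp, the iron exporter Slc40a1, the stress factor Atf3, the activin subunit Inhbb, the lipase Lpl and the protease inhibitors Serpina3g and Serpina3f. The rest were Trim69, the tubulin Tubb6 and S100a9, a neutrophil gene. The highest 15 included the chemokine Cxcl12, the retinoic acid receptor Rarb, the thromboxane receptor Tbxa2r, the cytokine receptor subunit Il31ra, the clock gene Per1, the gap junction gene Gja5, the lipid genes Scd2 and Fabp5, the exchange factor Tiam1, the kinase Ckb, and Depp1, Ces2g, Nradd and Igkc. Many of both sets were above 10 CPM in 1 library alone, so their ranks follow from the limit in part. Mt1, Nqo1, Srxn1, Trim69, Selp, Slc40a1, Tubb6, Serpina3f, S100a9 and Inhbb were under 10 CPM at 30 h. Gja5, Rarb, Igkc, Depp1, Il31ra, Tiam1, Nradd and Ces2g were under 10 CPM at 6 h.

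Some of these rested on few barcodes or on RNA from other cells. Of the S100a9 UMIs, 1 barcode gave 51.8% at 6 h and 79.0% at 30 h, and the S100a9 ratio of -1.99 turned to 0.19 when at least 5 UMIs of Pecam1 and Cdh5 were asked for. Igkc, an immunoglobulin chain of B cells, had 45.5% of its 6 h UMIs in 3 barcodes, and its ratio of 2.09 went to 0.48 without barcodes that carried RNA of another cell type. Mt1 had 17.7 CPM in Control, 54.9 CPM at 6 h and 3.28 CPM at 30 h, so that the 30 h level lay below Control too. Its free RNA was higher than the EC level in every library, with 99.1, 251 and 36.8 CPM in the empty droplets, and the 18 melanoma barcodes of the 6 h library held 1045 CPM. With the gene limits widened to at least 300 genes, the Mt1 ratio went from -4.07 to -2.61. The part of the melanoma cells in the Mt1 difference was not tested.

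**Figure D2:**
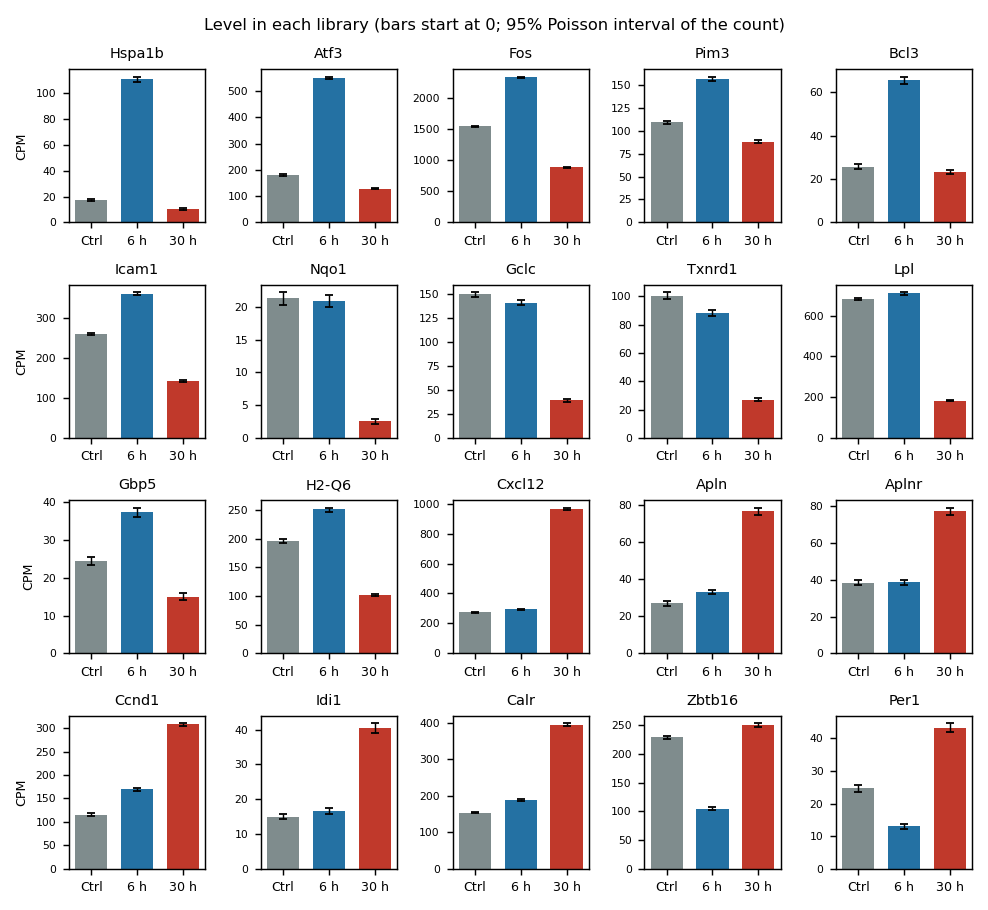
Bars give the CPM of 20 genes in the Control, 6 h and 30 h endothelial sums, each panel with its own linear axis from 0, and black lines are 95% Poisson intervals of the counts. Hspa1b, Atf3, Fos, Pim3, Bcl3 and Icam1 stand highest at 6 h, Nqo1, Gclc, Txnrd1 and Lpl stand low at 30 h alone, Cxcl12, Apln, Aplnr, Ccnd1, Idi1 and Calr stand highest at 30 h, and Zbtb16 and Per1 stand lowest at 6 h.

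Most genes of a short rCap panel were lower at 30 h than at 6 h. The 7 genes of the panel, which are the rCap genes followed by RT-qPCR, had a median log2 ratio of -0.96, and 5 of the 7 were at least 1.5-fold lower. Of 44 rCap cluster markers 43 were tested, with a median of -0.60, 22 lower and 1, Cmah, higher. Both lists were chosen in the original work on cells that included these libraries, so their direction is not independent evidence. They share members with each other and with lists below, so this limit holds there in part. Pim3 and Osmr also count under JAK-STAT, Bcl3 under NF-kB and Inhbb under BMP and TGF-beta.

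Pim3 (ENSMUSG00000035828, chromosome 15, 88862186 to 88865726 of mm10), a survival kinase, stood at 109 CPM in Control, 156 CPM at 6 h and 88.2 CPM at 30 h. The 30 h level was the lowest of the 3 libraries, with a log2 ratio of 30 h over 6 h of -0.82 (-0.86 to -0.78). The related kinase Pim1 had 92.2, 119 and 45.5 CPM in the same order, with a ratio of -1.39. Pim2 stayed under the 5 CPM mean with 3.32, 3.56 and 2.37 CPM. Bcl3, a nuclear partner of NF-kB, had 25.7, 65.5 and 23.2 CPM. Its 30 h level lay near that of Control, and the ratio was -1.50. Inhbb, the activin subunit, had 4.01, 28.3 and 7.29 CPM, a 3.88-fold lower level at 30 h that was still above Control. Osmr, the oncostatin M receptor, was 2.14-fold lower and Adamts9, a secreted protease, 1.94-fold lower. Tmem252 had 88.5, 164 and 111 CPM, which left it at a ratio of -0.57, short of the 1.5-fold limit. The last of the panel, Scarb1, had a ratio of -0.14.

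Immediate early genes, the transcription factors that switch on within minutes of a stimulus, were mostly lower at 30 h. Of 25 listed, 22 were tested, 15 were at least 1.5-fold lower and none higher, and the median was -0.80. Fos had 1550 CPM in Control, 2339 CPM at 6 h and 887 CPM at 30 h (ratio -1.40). Egr1 had 537, 968 and 354 CPM (-1.45). Atf3 (chromosome 1, 191170296 to 191218039) had 180, 550 and 128 CPM (-2.10). In each of these genes 6 h was the highest and 30 h the lowest library, and the counting intervals did not overlap. Ier3, Junb, Fosb, Egr3, Fosl2 and Zfp36 were also more than 2-fold lower, with ratios from -1.76 to -1.01. Myc, with 10.3 CPM at 6 h and 1.17 CPM at 30 h, passed the 5 CPM limit through the 6 h library alone, and its ratio of -3.14 went to -0.86 with 10 CPM added. Fosl1 fell short of the 5 CPM mean, with 783 UMIs at 6 h and 38 at 30 h, and counts in no total above. It is named here after its values were seen. ECs were isolated by a warm digestion, which can itself induce such genes, and the part of the digestion in this difference was not tested.

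Most heat shock genes were lower at 30 h than at 6 h. All 20 listed were tested, 13 were at least 1.5-fold lower, 1, Cryab, was higher, and the median was -0.68. Hspa1b (chromosome 17, 34956436 to 34959238) had 17.2 CPM in Control, 111 CPM at 6 h and 10.4 CPM at 30 h, a 10.7-fold lower level at 30 h (log2 ratio -3.41, -3.52 to -3.31). This inducible chaperone stood far higher at 6 h than in the other libraries. Its 6 h UMIs came from 3814 barcodes, of which the richest gave 0.289%. With every barcode thinned to 2000 UMIs, 14.9% of ECs at 6 h held a UMI of Hspa1b, against 12.9% (7.04 to 21) of the barcodes without Pecam1 or Cdh5, whose median depth before thinning was 4062 UMIs against 8033, so these shares are not read as expressing cells. Hsp90aa1, the inducible HSP90, had 199, 434 and 198 CPM (-1.13). The constitutive chaperone Hspa8 had 754, 1573 and 962 CPM (-0.71), and Hsp90ab1 had 1056, 2163 and 1280 CPM (-0.76). For these 2 genes the 30 h level remained above Control. Free RNA moved in the same way, with 154 CPM of Hspa1b in empty droplets at 6 h and 11.3 CPM at 30 h, and the 18 melanoma barcodes held 281 CPM. Hspa1a, the other inducible HSP70 gene, had no UMI in those 18 barcodes (0 to 19.2 CPM) and 18.1, 91.5 and 13.3 CPM in the ECs by library. Over all alternatives, which include the subtraction of the empty droplet profile, the median of the list lay between -0.71 and -0.61. The pattern of the heat shock factor, GAA, TTC and GAA with any 2 bases between neighbours, was searched on both strands and occurred within 250 bases before the start in 2 of 16 members with a RefSeq promoter, Hspe1 and Hspd1, against 0.514% of all genes with a promoter (0.466% of 32851 promoters). None of the 10 called members with a promoter held it. Hspe1 and Hspd1 held 2 matches each, and whether they share the same sites was not checked.

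Most tested NF-kB genes were lower at 30 h. Of 28 NF-kB targets and subunits 18 were tested, 14 were at least 1.5-fold lower and none higher (median -0.85). Of 35 genes of the JAK-STAT pathway 33 were tested, 13 were lower and 1, Il31ra, was higher (median -0.42). Icam1, the leukocyte adhesion receptor, had 260 CPM in Control, 360 CPM at 6 h and 141 CPM at 30 h (-1.35). Socs3, the feedback inhibitor of STAT3, had 546, 837 and 385 CPM (-1.12), and Stat3 itself 221, 310 and 145 CPM (-1.10). Csf1, a macrophage growth factor, had 81.3, 104 and 38.7 CPM (-1.43). For all 4 of these genes the 30 h level was under that of Control as well as under that of 6 h.

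Csf2 and Sele, NF-kB targets that were too low for the count, are named after their values were seen. Csf2, the granulocyte-macrophage growth factor, had 62 UMIs in Control, 823 at 6 h and 4 at 30 h, or 0.682, 9.42 and 0.0491 CPM. The ratio was -7.58 on the log2 scale with a counting interval of -9.46 to -6.22. The 823 UMIs lay in 108 barcodes, 759 of them among barcodes outside the aerocyte, artery, vein and lymphatic gates described below, and 3 barcodes gave 27.8%. UMIs of Csf2 were thus detected in few ECs at 6 h. Sele, E-selectin, had 570 UMIs at 6 h and 54 at 30 h (0.495, 6.53 and 0.663 CPM by library). Selp, P-selectin, which passed the limit through the 6 h library alone, had 13.9, 26.9 and 4.71 CPM (-2.51). Of the 10 tested genes of leukocyte adhesion, 3 were at least 1.5-fold lower (Selp, Icam1 and Vcam1), 1 was higher, the sulfotransferase Chst2, and the median was 0.08. Icam2, the constitutive receptor, had 663, 737 and 1065 CPM, a ratio of 0.53 in the other direction.

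The GTPases induced by interferon-gamma, which attack vacuoles of intracellular pathogens, were mostly lower as well. Of 16 listed 14 were tested, 11 were at least 1.5-fold lower and none higher (median -0.84). Gbp5 had 24.5 CPM in Control, 37.3 CPM at 6 h and 15 CPM at 30 h (-1.31). Iigp1 had 307, 365 and 157 CPM (-1.22). Igtp had 53.8, 75.5 and 35.2 CPM (-1.10) and Irgm1 73.6, 91.6 and 45.9 CPM (-1.0). The 30 h library was the lowest of the 3 for each. Type I interferon-stimulated genes moved less, with 6 of 23 tested lower, 1 higher (Bst2) and a median of -0.31. Among the lower ones, the calls of Ifit3 and Ifit3b were each lost under an alternative, at ratios of -0.55 and -0.53. Of 18 genes of MHC class I and the immunoproteasome 5 were lower and none higher (median -0.29). H2-Q6 had 196, 251 and 102 CPM (-1.30), although near-identical class I copies may share its reads. MHC class II genes had a median of 0.08, with Cd74 and its regulator Ciita lower and H2-DMa higher.

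Promoters of the GTPases, a list made of interferon-induced genes, are shown for a motif that most of those with a promoter held. Among 9 tested members with a RefSeq promoter (GRCm38.p6, the 250 bases before the start site), 8 held the interferon-stimulated response element, searched on both strands as GAAA and GAAA with any 2 bases between them, against 3.46% of all 27025 genes with a promoter (2.98% of 32851 promoters of that length). Of the 8 of these 9 genes that were at least 1.5-fold lower, 7 held it. Ifi47 (-1.13) was lower without a match, and Gbp3 (-0.19) was not called but held 2 matches. The motif was chosen with the values known, and a match is a description of these letters. The 3 members with the lowest ratios among those with a match are printed on the strand of the gene, 5′ to 3′, with the match in capitals. They are Gbp5 (chr3:142496684-142496933, plus strand, match starting 165 bases before the start site), Igtp (chr11:58199306-58199555, plus strand, 34 bases) and Irgm1 (chr11:48871421-48871670, minus strand, 2 overlapping matches at 30 and 24 bases).
Gbp5: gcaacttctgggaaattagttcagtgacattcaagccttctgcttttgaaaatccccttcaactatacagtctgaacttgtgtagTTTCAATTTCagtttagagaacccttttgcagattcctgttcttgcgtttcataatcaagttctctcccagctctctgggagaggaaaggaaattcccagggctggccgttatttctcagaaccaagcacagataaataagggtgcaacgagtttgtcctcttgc
Igtp: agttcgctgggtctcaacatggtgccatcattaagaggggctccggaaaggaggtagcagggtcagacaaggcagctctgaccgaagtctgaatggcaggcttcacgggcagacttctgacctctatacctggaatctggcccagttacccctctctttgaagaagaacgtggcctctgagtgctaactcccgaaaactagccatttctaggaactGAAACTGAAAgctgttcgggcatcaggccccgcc
Irgm1: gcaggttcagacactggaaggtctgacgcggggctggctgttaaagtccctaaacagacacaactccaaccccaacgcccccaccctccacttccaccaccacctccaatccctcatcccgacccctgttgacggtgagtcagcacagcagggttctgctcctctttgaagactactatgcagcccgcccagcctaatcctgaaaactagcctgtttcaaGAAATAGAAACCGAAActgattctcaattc

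Several targets of NRF2, the factor that drives antioxidant defence, showed another order of the libraries. Of 25 listed 23 were tested, 9 were at least 1.5-fold lower and none higher, and the median was -0.41. Nqo1 (chromosome 8, 107388225 to 107403206), a quinone reductase, had 21.4 CPM in Control, 21 CPM at 6 h and 2.5 CPM at 30 h (-3.07, -3.28 to -2.86). Of the 2 libraries compared, Nqo1 passed the 5 CPM limit through the 6 h library alone. Srxn1, which repairs peroxiredoxins, had 42.8, 44.1 and 6.58 CPM (-2.75). Txnrd1, thioredoxin reductase, had 100, 88.2 and 27 CPM (-1.71). For these genes Control and 6 h lay close together and 30 h stood apart. The same held for the subunits of the enzyme that starts glutathione synthesis. Gclc had 150, 141 and 39.0 CPM (-1.86) and Gclm 257, 214 and 77.7 CPM (-1.46). Me1, Hmox1, Pgd and Gsr were lower as well, with ratios from -1.53 to -0.79, and the factor itself, Nfe2l2, had 212, 201 and 145 CPM (-0.47). Nqo1 had 20.9 and 2.22 CPM in the empty droplets at 6 h and 30 h. In the 18 melanoma barcodes Nqo1 had 15.6 CPM (3.22 to 45.6, on 3 UMIs) and Srxn1 109 CPM (67.6 to 167), the second above its level in the 6 h ECs. The part of this RNA in the ratios was not tested.

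The long form of the antioxidant response element, TGANTCAGC, occurred in 2 of 19 NRF2 targets with a RefSeq promoter, against 1.17% of all genes with a promoter (1.02% of promoters), and the looser core TGACNNNGC in 6 of 19 against 11.5% of genes (10.2% of promoters). Both strands were searched, and the forms can overlap at a site. A match to the long form need not match the core, and the promoter of Srxn1 held no match to the core. The promoter of Srxn1 (chr2:152105274-152105523, plus strand), the 1 of 6 called members with a promoter that held the long form, is shown with that match in capitals, starting 45 bases before the start site.
Srxn1: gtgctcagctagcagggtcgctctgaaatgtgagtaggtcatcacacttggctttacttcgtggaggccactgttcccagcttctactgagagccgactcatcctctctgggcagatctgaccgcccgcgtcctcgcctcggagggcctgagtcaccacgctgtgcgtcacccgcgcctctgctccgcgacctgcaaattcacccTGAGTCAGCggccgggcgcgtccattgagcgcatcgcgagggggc

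Genes of capillary lipid uptake and of BMP signalling included others with this order. Lpl, the lipase that frees fatty acids from lipoproteins, had 683 CPM in Control, 710 CPM at 6 h and 183 CPM at 30 h, a 3.88-fold lower level (-1.95). Its 6 h UMIs lay in 8412 barcodes and its 30 h UMIs in 4629. Of the 10 tested genes of lipid uptake, Lpl and the lipase Lipe were lower, Fabp5 was higher, and the median was -0.06. Fabp5, a fatty acid carrier, had 13.6, 13.4 and 37.8 CPM (1.49). Of 18 tested BMP and TGF-beta genes 7 were at least 1.5-fold lower and none higher (median -0.44). The 7 include Inhbb of the rCap lists, and Bambi, whose call was lost under an alternative, at a ratio of -0.54. The ligand Bmp4 had 57.0, 61.0 and 23.8 CPM (-1.36), the ligand Bmp6 724, 747 and 466 CPM (-0.68), the signal carrier Smad1 93.8, 92.6 and 57.8 CPM (-0.68) and the target Id2 127, 128 and 62.2 CPM (-1.05). Each of the 4 was level between Control and 6 h and lower at 30 h. Ptgs1, the constitutive cyclooxygenase, had 163, 102 and 46.4 CPM, a stepwise order, with a ratio of -1.14.

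Cxcl12, a chemokine that arteries and capillaries use to guide CXCR4-bearing cells, was higher at 30 h. It had 274 CPM in Control, 293 CPM at 6 h and 967 CPM at 30 h (chromosome 6, 117168535 to 117181367; log2 ratio 1.72, 1.70 to 1.74). UMIs of Cxcl12 were found in 7044 of 9278 barcodes at 30 h and in 5858 of 10583 at 6 h. It was one of 5 angiogenic and tip cell genes that were at least 1.5-fold higher among 21 tested, with none lower and a median of 0.14. Apln, the peptide of sprouting tip cells, had 26.8, 33.0 and 76.5 CPM (1.21), and its receptor Aplnr had 38.4, 38.7 and 77.4 CPM (1.00). Kdr, the main receptor for VEGF-A, had 450, 461 and 724 CPM (0.65), and Tie1 223, 211 and 334 CPM (0.66). The call of Kdr was lost at a ratio of 0.49 with the gate shares set equal and of 0.56 with barcodes thinned to 2000 UMIs. All 5 genes differed less between Control and 6 h than between 6 h and 30 h. Vegfa was not among them, with 192, 367 and 252 CPM (-0.54).

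A pair of Notch pathway genes and a cyclin were higher too. Of 12 tested Notch genes 2 were at least 1.5-fold higher and none lower (median 0.11). Hes1, a Notch target, had 236, 244 and 417 CPM (0.77), and Nrarp, the feedback regulator, 20.7, 27 and 50.9 CPM (0.91). Ccnd1, the cyclin that starts the cell cycle, had 115, 170 and 308 CPM (0.86) and was the 1 called gene of 12 tested cell cycle genes. Another 12 of the 24 listed, among them Mki67, Top2a and Ccnb1, stayed under 5 CPM.

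Genes of cholesterol synthesis had the highest median of the lists examined, the ribosomal RNA models aside. Of 20 listed 17 were tested, 11 were at least 1.5-fold higher and none lower, and the median was 0.65. Idi1, which makes a building block of sterols, had 15 CPM in Control, 16.5 CPM at 6 h and 40.5 CPM at 30 h (1.29). Sqle, squalene epoxidase, had 2.30, 3.24 and 9.47 CPM (1.55), and Dhcr7, the last enzyme of the route, 2.74, 3.19 and 8.16 CPM (1.35). Both passed the 5 CPM limit through the 30 h library alone, so their calls add little to the count. The regulator Srebf2 had 32.7, 35.2 and 57.8 CPM (0.72). The 30 h library was the highest of the 3 for each, at levels low enough that adding 10 CPM to both sides brought the ratio of Sqle to 0.56 and the median of the list to 0.48. A sterol regulatory element, searched as TCACNCCAC on both strands, was found in 1 of 11 members with a promoter, Hmgcs1, against 1.22% of all genes with a promoter (1.05% of promoters), and in none of the 6 called members with a promoter.

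Genes of the unfolded protein response, by which cells adjust folding in the endoplasmic reticulum, were mixed. Of 16 tested genes 5 were higher and 3 lower, with a median of -0.01. Calr, a calcium-binding chaperone, had 154, 189 and 395 CPM (1.06), and Hsp90b1 had 313, 377 and 584 CPM (0.63). Pdia3, Pdia4 and Pdia6, which form disulfide bonds, had ratios of 0.61, 0.61 and 0.68. The call of Pdia4 was lost under an alternative, at a ratio of 0.48. The 3 lower genes were Asns (-1.07), the transcription factor Atf4 (-0.60) and the cochaperone Dnajb9 (-0.59). In the lymphatic gate described below, which holds few barcodes, the median of the 16 was -0.78, against -0.02 for all genes tested there.

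Some genes that glucocorticoid hormone and the clock control were lowest at 6 h. Zbtb16, a transcription factor that glucocorticoids induce, had 229 CPM in Control, 105 CPM at 6 h and 250 CPM at 30 h (1.26). Per1 had 24.8, 13.0 and 43.2 CPM (1.73) and Tsc22d3, which carries the anti-inflammatory effect of glucocorticoids, 205, 130 and 203 CPM (0.64). For Zbtb16 and Tsc22d3 the 30 h level lay beside that of Control, and the 6 h library was the one that differed. The lists as a whole were mixed. Of 15 tested glucocorticoid-induced genes 4 were higher and 4 lower (median -0.15), with Fkbp5 at 49.2, 26.8 and 17.5 CPM among the lower ones. Of 14 tested clock genes 4 were higher, Per1, Dbp, Per3 and Tef, and 3 lower, Cry1, Ciart and Arntl (median 0.21). The calls of Per3, Cry1, Ciart and Arntl were each lost under an alternative, at ratios of 0.24, -0.58, -0.39 and -0.46. Dbp and Per3 were low at 6 h, with a UMI in 3.09% and 3.11% of barcodes before thinning. The hour of day at which mice were taken is not given in the sources used here.

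The junction genes that hold the endothelial barrier differed little. Of 16 listed 15 were tested, none passed 1.5-fold in either direction, and the median was -0.05. Cdh5, VE-cadherin, had 1636, 1583 and 1788 CPM (0.18), and Pecam1 had 1097, 1136 and 1237 CPM (0.12), both of which the rule for barcodes used. Cldn5, the main claudin of the endothelium, had 1956, 1996 and 2611 CPM (0.39, 0.38 to 0.40). Of the catenins that tie cadherin to actin, Ctnna1 had a ratio of -0.06, Ctnnb1 of 0.01 and Ctnnd1 of -0.15. These differences are small, and with 1 library a side the spread between mice is unknown.

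Genes of ribosomes and of the respiratory chain lay slightly above 0 as a body, and short transcripts were called higher more often than long ones. Beside the 4090 of 10184 tested genes with a ratio above 0, 76 of 77 tested ribosomal protein genes had one, with a median of 0.15. The 2 past 1.5-fold were Rps29 and Rpl35, and both calls were lost under an alternative, at ratios of 0.47 and 0.40. Of 91 tested nuclear genes of the respiratory chain 81 had a ratio above 0, with 7 past 1.5-fold, such as Atp5k with 137, 141 and 254 CPM, and a median of 0.23. All 13 mitochondrially encoded genes had ratios above 0, with a median of 0.22. The longest transcript had a median of 2502 bases in the genes called higher, 3395 bases in those called lower and 3441 bases in all tested genes. Of 522 genes under 1000 bases 15.9% were called higher, and their median ratio was 0.20, against -0.14 for genes of 6000 bases or more. The gene models that collect ribosomal RNA reads were 7 of 7 higher (median 1.73), Gm42418 with 4242, 5228 and 16839 CPM. When ratios were centred by transcript length, an alternative chosen after seeing the data, the list medians were -0.81 for the rCap panel, -0.62 for heat shock, -0.77 for the GTPases, -0.33 for the NRF2 targets and 0.73 for cholesterol synthesis. With mitochondrial genes and ribosomal RNA models taken out of the totals, 617 genes were called higher and 469 lower.

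**Figure D3:**
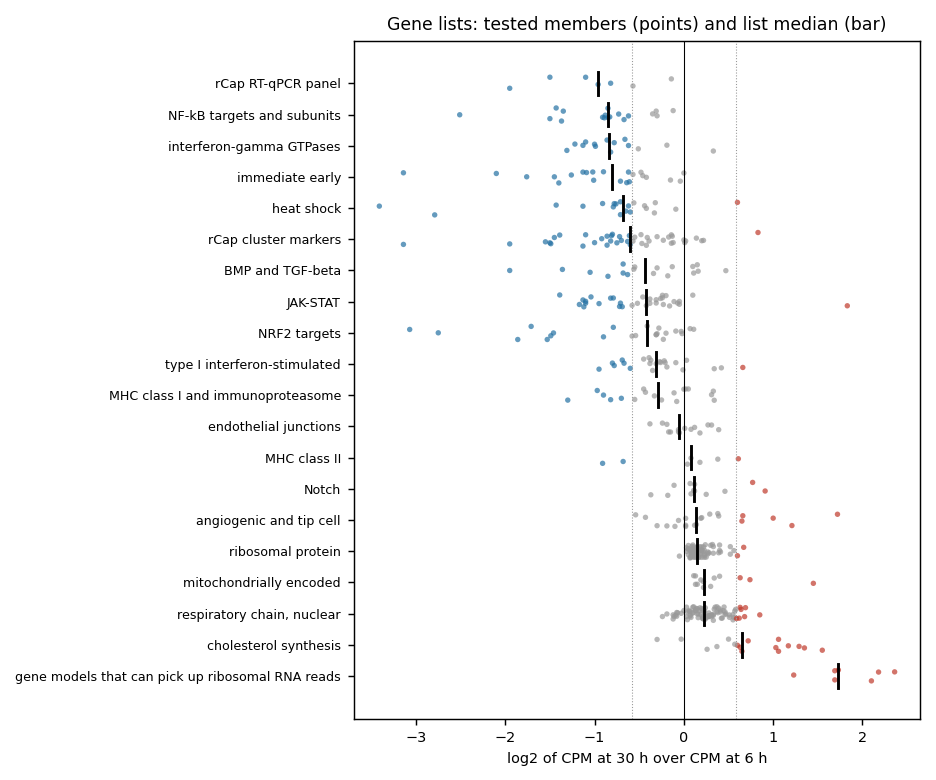
Each point is a tested member of 1 of 20 gene lists at its log2 ratio of 30 h over 6 h, red if at least 1.5-fold higher, blue if at least 1.5-fold lower and grey otherwise, black bars are the list medians and dotted lines mark 1.5-fold. Medians run from -0.96 for the rCap panel to 0.65 for cholesterol synthesis and 1.73 for the ribosomal RNA models, while the junction genes sit around 0.

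The makeup of the sums differed between the libraries. By gates on marker UMIs (at least 3 UMIs over at least 2 markers of a gate and more than of any other gate), 1591 barcodes at 6 h and 1845 at 30 h fell in the aerocyte gate, 2.18% and 4.23% of barcodes in the artery gate, 502 and 522 in the vein gate, 54 and 55 in the lymphatic gate, and 8205 and 6464 in none. The last set was rich in general capillary markers, with a median of 33 such UMIs per barcode at 6 h and 36 at 30 h, and lay close to a gate's limit in 1065 and 917 barcodes. Since gate markers such as Ednrb and Gja5 differ between the times, no share of the gates is read as a change of cell numbers, and those genes are given for the whole sum alone. Gja5, a connexin of arteries, had 3.48, 4.83 and 15.3 CPM by library (1.67), and Ednrb, the endothelin receptor of aerocytes, 230, 166 and 315 CPM (0.93). From 6 h to 30 h the share of barcodes in the gate that each helps to define was higher too, 15% and 19.9% for the aerocyte gate.

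Several of the large differences were found within every gate. Hspa1b had ratios of -3.34 in the aerocyte, -2.79 in the artery, -3.22 in the vein and -3.32 in the lymphatic gate and -3.63 in the remaining barcodes. Atf3 lay between -2.48 and -1.64 and Lpl between -2.21 and -1.26 over the same 5 sets. Cxcl12 was higher in each, from 1.35 in the vein gate to 1.86 in the aerocyte gate, and its level was highest in the artery gate, with 1556 CPM at 6 h and 4940 CPM at 30 h. Il31ra, a subunit of the interleukin-31 receptor, was higher in each with ratios from 1.42 to 2.41. Its free RNA was also higher at 30 h, with 34.4 and 55.3 CPM in the empty droplets at 6 h and 30 h. The endothelial sums held 681 and 2264 UMIs of Il31ra, a lower level than in the empty droplets of either library. Subtraction of the empty droplet profile raised its ratio from 1.83 to 3.20, a value that depends on the estimated share of free RNA.

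The median of the NRF2 targets was -0.90 in the aerocyte gate, against -0.55 in the artery gate, -0.40 in the remaining barcodes, -0.15 in the vein gate and -0.12 in the lymphatic gate. Not every member followed this order. Nqo1 had a ratio of -3.97 in the artery gate (-5.48 to -2.76, on 6 UMIs at 30 h), -3.73 in the aerocyte gate and -3.31 in the remaining barcodes. Srxn1 went from 140 to 9.07 CPM in the aerocyte gate (-3.94, -4.17 to -3.73) and from 9.83 to 5.02 CPM in the vein gate (-0.97, -1.69 to -0.28). Txnrd1 went from 130 to 19.6 CPM (-2.73) and from 61.6 to 42.3 CPM (-0.54) in the same gates. The counting intervals of the aerocyte and vein gates do not overlap for Srxn1 or Txnrd1, while a test of the difference between gates over mice was not possible.

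Other genes had most of their level in 1 or 2 gates, or differed between them. No difference between gates was tested. Selp, the P-selectin of venules, stood at 409 CPM at 6 h and 53.2 CPM at 30 h in the vein gate (-2.94) and at 2.55 and 0.781 CPM in the remaining barcodes. Rarb lay in the vein and lymphatic gates, with 62.2 and 222 CPM in the vein gate (1.83) but 50.6 and 53.3 CPM in the lymphatic gate (0.08, -0.77 to 0.94). Apln lay in the aerocyte gate, with 149 and 266 CPM (0.84), below the ratio of 1.21 in the whole sum. Kdr had 1205 and 1879 CPM there (0.64) but ratios of -0.10 in the artery gate and -0.06 in the vein gate, both with intervals that include 0. Icam1 was lower in each gate, from -0.97 in the aerocyte gate to -1.94 in the artery gate, and Pim3 was lower in all sets but the lymphatic gate, where its ratio was 0.01 (-0.63 to 0.65) on few UMIs.

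**Figure D4:**
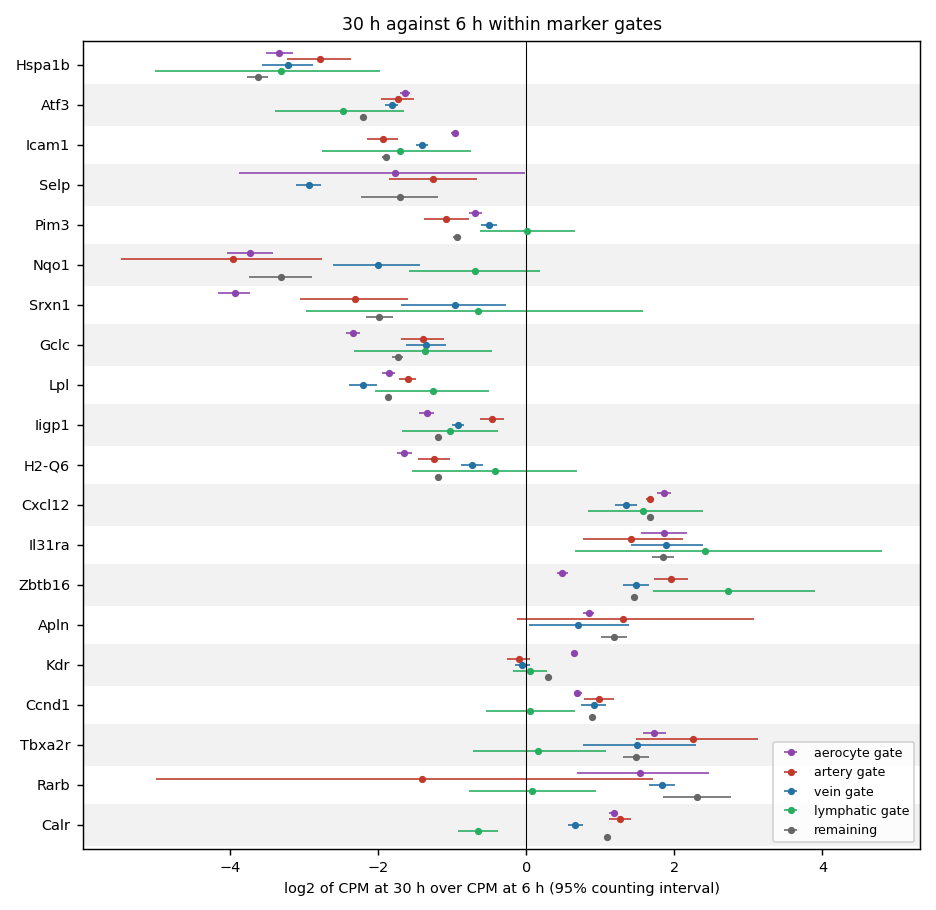
Points are log2 ratios of CPM at 30 h over CPM at 6 h for 20 genes within barcodes of the aerocyte, artery, vein and lymphatic gates and in the remaining barcodes, with 95% counting intervals as lines; a gate without UMIs in a library has no point. Hspa1b, Atf3 and Lpl lie left of 0 and Cxcl12 and Il31ra right of 0 in all 5 sets, Srxn1 spreads from -3.94 in the aerocyte gate to -0.65 in the lymphatic gate, and Calr is below 0 in the lymphatic gate alone.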

How the data were processed

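Droplet 3′ libraries of sorted lung ECs were deposited as unfiltered matrices of UMI counts per gene and barcode, which per the file headers the authors made with Cell Ranger 7.2.0 on mm10; the methods name an older version, and the conflict was not settled. Whether intronic reads were counted is not given in the sources used here. Deposited totals were 124085451 to 140601123 UMIs per library. UMIs of the barcodes that met the rule were summed per library and scaled to CPM without a pseudocount (Python 3.11.15, numpy 2.4.6, scipy 1.17.1). Ratios carry exact conditional binomial intervals, levels exact Poisson intervals. Doublets were kept, since the rule has no such step; an alternative left out 8.86% and 7.66% of the 6 h and 30 h barcodes by Scrublet score (scanpy 1.11.5). Genes were called at 1.5-fold with a mean of at least 5 CPM. The text names the 15 genes with the highest and the 15 with the lowest ratios (mean of at least 10 CPM, without mitochondrial genes, ribosomal RNA models and Gm or Rik models), up to 6 members per list with the largest ratios, and Pim, junction and rCap genes fixed by name; other members are named where a list's counts call for it. A few genes that the rule names are not reported here. Members, lists and this rule were chosen with earlier results of these data known. Positions are from GENCODE M21 and promoters from RefSeq (GRCm38.p6). Scripts were tested on simulated data.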

Additional observations from a re-analysis of the deposited data

Results flagged for a closer look

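A few genes pointed in opposite directions in different gates, with counting intervals past 1.5-fold on each side. These differences between gates were not tested over mice. Fabp4, a fatty acid carrier, had log2 ratios of 30 h over 6 h of 2.65 in the aerocyte gate and 0.72 in the remaining barcodes but of -4.61 in the artery gate and -1.74 in the lymphatic gate. Few barcodes carried it: 1 barcode gave 613 of the 841 Fabp4 UMIs in the artery gate at 6 h, and 1 gave 570 of the 983 in the aerocyte gate at 30 h. Hsp90b1 had ratios of 0.72 in the aerocyte gate, 0.84 in the artery gate and 0.62 in the remaining barcodes but of -0.91 in the lymphatic gate, and Pdia6 had ratios of 0.76, 1.04 and 0.70 in the first 3 sets but of -1.79 in the lymphatic gate. Lymphatic levels of Hsp90b1 were 320 CPM in Control, 876 CPM at 6 h and 465 CPM at 30 h, and those of Pdia6 80.5, 281 and 80.9 CPM. The lymphatic sums come from 54 and 55 barcodes, and 1 barcode gave 16.4% of the Pdia6 UMIs there at 6 h. Their cause was not tested.

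Melanoma markers appeared in data outside the endothelial sums. In the empty droplets of the 6 h library they summed to 197 CPM, against 1.97 CPM in Control and 2.22 CPM at 30 h.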

How the results depend on the processing

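The counts of called genes moved with the expression limit and the pseudocount. With a mean of at least 1 CPM they were 1031 higher and 875 lower, with at least 20 CPM 268 and 332, and with 10 CPM added to both sides 211 and 265. The median of the ribosomal protein genes was 0.22 with the median ratio set to 1, 0.20 with trimmed mean scaling and 0.11 when ratios were centred by transcript length, an alternative chosen after seeing the data; that of the nuclear respiratory chain genes was 0.30, 0.29 and 0.15. Length centring called 648 genes higher and 420 lower. The median of the cholesterol genes was 0.48 with 10 CPM added, and that of the metallothionein and zinc genes went from -0.24 to 0.20 when the empty droplet profile was subtracted. S100a9 reversed to 0.19 with at least 5 UMIs of Pecam1 and Cdh5. Of 612 list medians under alternatives, the 8 given above left the interval of the main median (the range of members where a list had few). The median of the 3 tested Serpina3 genes stayed inside such a range but ran from -2.65 to -1.17 around -2.08. Of 3795 values of 211 single genes, 2842 stayed within their counting interval. Calls close to 1.5-fold could be lost under an alternative, as for Chst2, Bst2, H2-DMa and Ciita, at ratios of 0.36, 0.46, 0.42 and -0.40. Adding 10 CPM shrank the ratios of low genes, Nqo1 to -1.31 and Gja5 to 0.77 among them.

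No paired analysis was possible because each group is 1 library, and no replicate was left out for the same reason. Counting intervals are narrow at this depth, so differences between mice, pools and preparations, which were not measured, are the limit of every ratio given here. Free RNA was estimated at 16.5% of the 6 h and 14.0% of the 30 h sum, from the epithelial markers. The estimate depends on the markers chosen. Red cell markers had 2115 CPM in the 6 h sum against 17646 CPM in its empty droplets. At 30 h they had 827 against 7156 CPM, and they would give other shares.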

Other observations

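Several lists that the comparisons above leave out were mixed or level. Of 10 tested tubulins 3 were at least 1.5-fold lower at 30 h, Tubb6, Tuba1c and Tuba4a. Another, Tubb2b, was higher, with 9.85 CPM in Control, 13.8 CPM at 6 h and 33.1 CPM at 30 h. All 3 lower ones passed the 5 CPM limit through the 6 h library alone. Tuba1c had 13.2 CPM at 6 h and 3.96 CPM at 30 h, and Tuba4a 7.92 and 3.78 CPM. The Tuba4a call was lost under an alternative, at a ratio of -0.38, and its free RNA had a ratio of 0.01. Tubb6 had 3.04, 17.8 and 3.90 CPM, so that it was high at 6 h alone. The 18 melanoma barcodes of the 6 h library held 41.6 CPM of Tubb6 and 83.2 CPM of Tuba1c, and the part of such RNA in these ratios was not tested.

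Of 11 tested genes of coagulation and fibrinolysis 3 were lower, Plat and Thbs1 among them, and 1 was higher, Plau. The calls of Plat, Thbs1 and Plau were each lost under an alternative, at ratios of -0.50, -0.39 and 0.12. Thbs1 had 23.5 and 15.4 CPM in the ECs at 6 h and 30 h but 49.3 and 23.7 CPM in the empty droplets. The anticoagulant receptor Thbd had 859 CPM in Control, 743 CPM at 6 h and 1038 CPM at 30 h, a ratio of 0.48. None of the 8 tested shear stress genes passed 1.5-fold, and their leading factors Klf2 and Klf4 had ratios of 0.26 and -0.06. Of 14 tested genes of basement membrane and matrix 3 were higher, Fbln2, Col18a1 and Fbn1, and 1 lower, Lama5. Each of these 4 calls was lost under at least 1 alternative. Their ratios went from 1.20 to 0.55 for Fbln2, from 0.60 to 0.29 for Col18a1 and from 0.60 to 0.34 for Fbn1 with 10 CPM added, and from -0.59 to -0.44 for Lama5 with length centring. Fibroblast markers moved with these genes, from 170 CPM at 6 h to 226 CPM at 30 h, as did markers of pericytes and smooth muscle, from 87.5 to 103 CPM, and their part in the ratios was not tested. Without barcodes that carried RNA of another cell type the Fbln2 ratio was 1.09. Of 15 tested glycolytic genes 1 was higher, Pfkm, and 1 lower, Slc2a1. Both calls were lost under an alternative, at ratios of 0.31 and -0.42.

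All 3 tested Serpina3 genes were lower at 30 h. Serpina3g had 38.7, 65.6 and 10.5 CPM (-2.65), Serpina3f 18.1, 26.7 and 6.33 CPM (-2.08) and Serpina3n 6.03, 8.23 and 4.42 CPM (-0.90), and reads of these near-identical copies may be split between them.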
